A study of Homo sapiens with 6 samples.

Results

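The genes described here are 45 human genes of purine and pyrimidine nucleotide synthesis, salvage and breakdown, found in the table by symbol, with no measured value in the rule. All 45 had a row among the 23227 genes of the count table, and 44 of them passed the filter on low counts. The exception was NT5E. The values are RNA-seq read counts from MV4-11, an established line of human acute myeloid leukaemia cells that carries KMT2A-AFF1 and a tandem duplication within FLT3. In 3 libraries, here called knockdown, the cells had ENO1 knocked down; ENO1 encodes alpha-enolase, an enzyme of glycolysis. The other 3 libraries, here called control, came from cells labelled as having no treatment. Both groups carry the genotype label WT, and the columns of the knockdown libraries bear the name of 1 hairpin. The control titles bear the unexplained letters NC, and whether these cells received a control hairpin is not stated. No label ties the libraries of a group to separate cultures, so the p-values speak only for the scatter among these 6 libraries, possibly a technical one.

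Cells make purine nucleotides by building the ring on phosphoribosyl pyrophosphate (PRPP), a sugar phosphate supplied through the pentose phosphate pathway, up to inosine monophosphate (IMP), which is then turned into AMP or GMP. Pyrimidines are made as a free ring that is joined to PRPP to give UMP, from which CTP is formed. Salvage enzymes recover free bases and nucleosides, ribonucleotide reductase turns ribonucleotides into deoxynucleotides for DNA, and proliferating leukaemia cells are targets of drugs that block several of these steps.

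The knockdown libraries held 20044602 to 21670135 counts and the control libraries 24778469 to 26373960. ENO1 averaged 102.1 ± 1.25 CPM (counts per 1000000 of the scaled library size) in knockdown cells and 3262 ± 22.6 CPM in control cells (SD, n = 3 each), which left 3.13% of the control level. Mitochondrially encoded genes took 9.27 to 9.69% of the counts in knockdown libraries and 6.69 to 6.88% in control libraries, and the part of this shift in the results below was not tested. All 12 markers listed for a myeloid line passed the filter. Of these 8 rose, ITGAM by 1.81 and PTPRC by 1.10 on the log2 scale, against 29.4% of all tested genes. Another 3 fell, MPO to a log2 fold change of -2.61 and LYZ to -2.41, against 30.5% of all tested genes. The part of these marker changes in the results below was not tested. Of the 12 markers listed for other cell types 8 had a row, and 5 of these (CD3E, MS4A1, EPCAM, COL1A1 and COL1A2) stayed between 0 and 11 counts in every library. Among those that passed the filter, NKG7 was not called (adjusted p = 0.297) and PECAM1 fell, to 66.4 CPM in knockdown cells against 93.9 CPM in control cells.

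Most nucleotide genes that differed between the groups were lower in the knockdown cells. Of the 44 tested members, 26 (59.1%) fell and 5 (11.4%) rose at a Benjamini-Hochberg adjusted p below 0.05 in the edgeR quasi-likelihood test, while 13 did not pass. Over all 14635 genes tested, 30.5% were called lower and 29.4% higher. The members thus fell more often and rose less often than the background of the table. That contrast is a description of counts and was not tested. The background was not matched by level. Of its genes 8940 averaged at least 10 CPM in control cells, as did all tested members but AMPD3, NME2 and UPP1. With at least 5 CPM in 3 libraries, 24 of 42 members were lower and 8 higher, against 3608 and 3690 of 10292 genes. The median log2 fold change of the members was -0.15, against 0.0043 over all genes. Differences were mostly small: 7 members fell and 2 rose by at least 0.5 on the log2 scale, against 11.1% lower and 14.3% higher, together 25.4%, of all genes. The 3 knockdown libraries lay entirely below the 3 control libraries for 27 members, against 32.5% of all genes, and entirely above them for 6, against 31.8%. Together these were 33 of 44 members, against 64.3% of all genes. With plain library totals in place of TMM scaling, 22 members were lower and 10 higher. Rises then made up 31.2% of the calls, against 16.1% with TMM. Over all genes 3843 were then lower and 4900 higher, against 4458 and 4309 with TMM. The whole table thus moved the same way. In bulk RNA, less RNA per cell and fewer cells of a kind cannot be told apart.

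**Figure D1:**
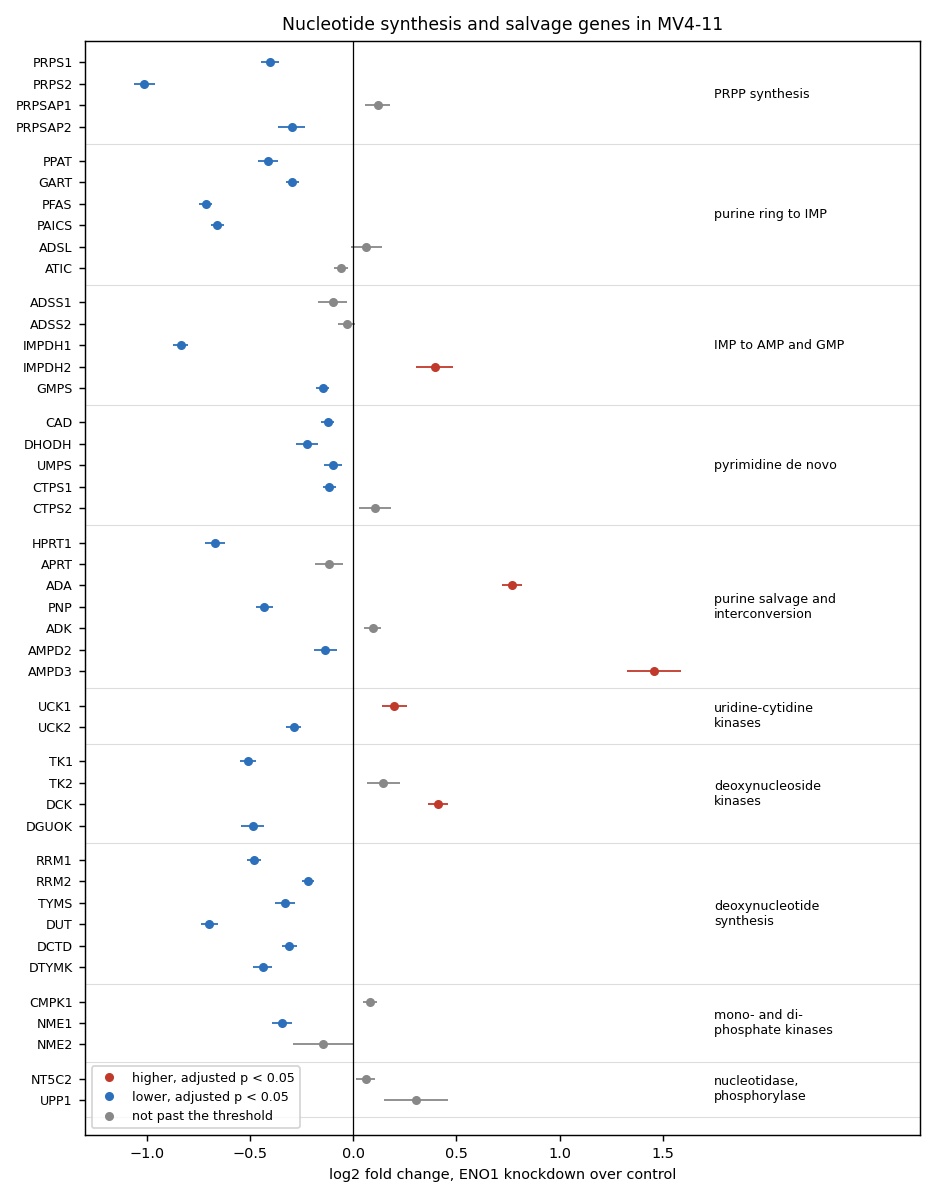
Log2 fold change, ENO1 knockdown over control, of the 44 tested members in order of metabolic step; points are edgeR estimates, bars approximate standard errors, and colour gives the call at an adjusted p of 0.05. The deoxynucleotide genes all lie left of 0, PRPS2 is lowest at -1.01 and AMPD3 highest at 1.46.

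**Figure D2:**
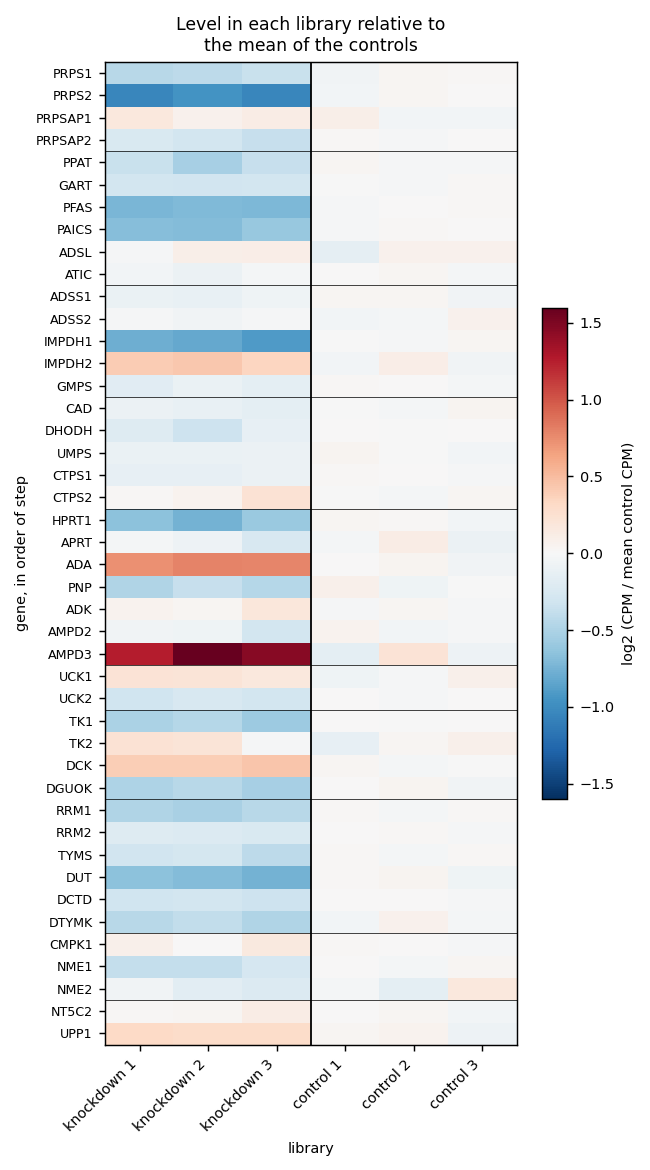
Level of each tested member in each of the 6 libraries as log2 of CPM over the mean CPM of the 3 controls, knockdown libraries at the left. Within a group the libraries look alike, and the strongest colours are the low PRPS2 and IMPDH1 and the high AMPD3 and ADA of the knockdown libraries.

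PRPP synthesis was lower at both of its synthetases. PRPS2, one of the PRPP synthetases (ENSG00000101911, GRCh38 chromosome X, 12791355 to 12824222, plus strand), had 33.8, 36.1 and 33.7 CPM in knockdown libraries, against 68.0, 71.3 and 70.2 CPM in control libraries. The groups did not overlap, and the fall of 1.01 on the log2 scale (approximate SE 0.0507, adjusted p = 8.72e-16) left 49.5% of the control level, the largest fall of the 44 tested members. PRPS1, the other synthetase, fell less, to 64.1 ± 1.99 CPM in knockdown cells against 84.9 ± 2.88 CPM in control cells (SD, n = 3 each; log2 fold change -0.40, adjusted p = 1.08e-08). Of the PRPP synthetase-associated proteins, which bind the synthetases and restrain them, PRPSAP2 fell (log2 fold change -0.30, adjusted p = 0.000224), while PRPSAP1 had 33.0 ± 1.04 CPM in knockdown cells and 30.4 ± 1.77 CPM in control cells and did not pass (adjusted p = 0.1002). It passed without control replicate 1 (adjusted p = 0.0498) and with plain library totals (adjusted p = 0.0189).

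Of the 6 genes that carry the purine ring from PRPP to IMP, 4 (66.7%) fell and none rose, against 30.5% and 29.4% of all genes. PFAS, which adds the nitrogen of glutamine at a middle step (ENSG00000178921, chromosome 17, 8247618 to 8270491, plus strand), had 133, 135 and 134 CPM in knockdown libraries and 218, 221 and 223 CPM in control libraries. Its libraries did not overlap between groups, and the level stood at 60.9% of the control (log2 fold change -0.72, approximate SE 0.0326, adjusted p = 1.06e-16). PAICS, a bifunctional enzyme of later steps (ENSG00000128050, chromosome 4, 56435741 to 56464579, plus strand), had 367, 362 and 384 CPM in knockdown libraries and 576, 592 and 589.8 CPM in control libraries. It was the most abundant member in CPM in both groups, and its fall of 0.66 on the log2 scale (approximate SE 0.0295, adjusted p = 7.56e-17) was wider than the spread within either group.

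PPAT, the amidotransferase that commits PRPP to the pathway (ENSG00000128059, chromosome 4, 56393362 to 56435615, minus strand), averaged 62.3 ± 4.12 CPM in knockdown cells and 83.0 ± 1.66 CPM in control cells (log2 fold change -0.41, adjusted p = 2.43e-08). GART, a protein with several activities of the pathway, averaged 218 ± 1.92 CPM in knockdown cells and 268 ± 3.19 CPM in control cells (log2 fold change -0.30, adjusted p = 3.15e-09). The late enzymes did not follow. ADSL, which acts in ring synthesis and again on the branch to AMP, had 21.8 ± 1.03 CPM in knockdown cells and 20.8 ± 1.65 CPM in control cells (adjusted p = 0.493). ATIC, which closes the ring, had 179 ± 4.38 CPM in knockdown cells and 187 ± 4.56 CPM in control cells (adjusted p = 0.139), and the groups overlapped in both genes. ATIC passed when knockdown replicate 3 was left out (adjusted p = 0.0321). ADSL shares 18.9% of its annotated exon bases with the overlapping gene AL022238.4 on the same strand, so its count is uncertain.

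PPAT and PAICS lie head to head on chromosome 4, and the stretch between their RefSeq starts is shown because both genes fell and share it. It spans 136 bases (GRCh38.p14, plus strand, chr4:56435616-56435751), with PPAT transcribed leftward from its left end and PAICS rightward from its right end. The capitals mark GGGCGG, the core of the GC box, which occurs 3 times.
PPAT-PAICS: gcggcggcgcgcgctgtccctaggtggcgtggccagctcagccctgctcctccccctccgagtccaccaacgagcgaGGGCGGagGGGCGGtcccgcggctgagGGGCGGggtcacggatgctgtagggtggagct
From this shared stretch PAICS fell by 0.66 and PPAT by 0.41 on the log2 scale, 2 separate estimates whose difference was not tested. GGGCGG was found on either strand within the 250 bases before a start in 37 of the 43 members with a RefSeq promoter (86.0%) and in 46.2% of all 27305 genes with one, counting a gene when any of its windows held it. Per window the shares were 68.0% for the members and 42.6% for all genes. Members holding it went different ways. PPAT and PAICS fell along with others, ADA, AMPD3 and DCK rose, and ADK, APRT and ATIC were among those that did not pass. The part of the GC box in these changes was not tested.

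Beyond IMP, the branch to GMP changed and the branch to AMP did not pass the test. IMP dehydrogenase is the rate-limiting enzyme of GMP synthesis and exists in a pair of forms. IMPDH1 (ENSG00000106348, chromosome 7, 128392277 to 128410252, minus strand) had 133, 129 and 121 CPM in knockdown libraries, against 226, 225 and 232 CPM in control libraries. It fell to 56.0% of the control level without overlap (log2 fold change -0.84, approximate SE 0.0359, adjusted p = 2.87e-17). IMPDH2 (ENSG00000178035, chromosome 3, 49024325 to 49029408, minus strand) moved the other way, with 15.6, 15.8 and 14.95 CPM in knockdown libraries and 11.4, 12.7 and 11.3 CPM in control libraries (log2 fold change 0.39, approximate SE 0.0880, adjusted p = 0.00036). All 3 knockdown libraries exceeded all 3 controls. GMPS, which completes GMP, fell slightly, to 219 ± 5.44 CPM in knockdown cells against 243 ± 4.15 CPM in control cells (log2 fold change -0.15, adjusted p = 0.000243). On the AMP branch, the adenylosuccinate synthetases ADSS1 (21.6 ± 0.356 CPM in knockdown cells, 23.1 ± 0.849 CPM in control cells, adjusted p = 0.220) and ADSS2 (95.0 ± 1.46 CPM in knockdown cells, 97.2 ± 4.12 CPM in control cells, adjusted p = 0.510) did not pass.

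De novo pyrimidine genes fell by little. CAD, the protein that carries the opening steps of the pathway, had 275, 269.6 and 263 CPM in knockdown libraries and 291, 287 and 302 CPM in control libraries (log2 fold change -0.12, approximate SE 0.0314, adjusted p = 0.00136). DHODH, the mitochondrial enzyme that forms orotate and the target of brequinar and leflunomide, had 40.6, 37.3 and 42.8 CPM in knockdown libraries and 47.1, 46.8 and 47.0 CPM in control libraries. Its fall of 0.23 (approximate SE 0.0552, adjusted p = 0.000938) was the largest among these 5 genes, and the groups did not overlap. UMPS, which makes UMP from orotate, had 70.7, 70.7 and 71.5 CPM in knockdown libraries and 78.2, 76.0 and 73.8 CPM in control libraries (log2 fold change -0.10, adjusted p = 0.0494). UMPS lost its call under 12 of 16 alternatives, where the adjusted p ran up to 0.371, among them leaving out knockdown replicate 1 (0.0947) or 2 (0.0988) or control replicate 1 (0.168) or 2 (0.0973). CTPS1, the CTP synthetase of proliferating lymphocytes, had 161, 161 and 165 CPM in knockdown libraries and 178, 177 and 173 CPM in control libraries (log2 fold change -0.12, adjusted p = 0.0035). CTPS2, its paralog, had 18.7, 19.1 and 21.6 CPM in knockdown libraries and 18.3, 18.1 and 18.9 CPM in control libraries and did not pass (adjusted p = 0.257). With plain library totals, CAD (adjusted p = 0.0611) and CTPS1 (adjusted p = 0.104) did not pass either, and DHODH alone remained.

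Purine salvage and interconversion genes moved in both directions, with 2 of 7 higher and 3 lower, against 29.4% and 30.5% of all genes; the share of rises is near that background. HPRT1, which returns hypoxanthine and guanine to IMP and GMP (ENSG00000165704, chromosome X, 134460153 to 134520513, plus strand), had 52.8, 49.6 and 55.2 CPM in knockdown libraries and 85.0, 84.3 and 81.2 CPM in control libraries. It fell to 62.8% of the control level (log2 fold change -0.67, approximate SE 0.0476, adjusted p = 1.68e-12). APRT, which does the same for adenine, was the highest member per kilobase in both groups and did not pass, with 139 ± 10.9 CPM in knockdown cells and 151 ± 11.6 CPM in control cells (adjusted p = 0.176; 0.0392 without control replicate 3). PNP, which splits inosine and guanosine, fell (105 ± 4.15 CPM in knockdown cells, 142 ± 7.33 CPM in control cells, log2 fold change -0.43, adjusted p = 7e-10). AL355075.3 overlaps 11.9% of its exon bases from the opposite strand, so its count is uncertain.

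ADA and AMPD3, which both remove the amino group of adenine compounds, rose. ADA, adenosine deaminase (ENSG00000196839, chromosome 20, 44619522 to 44652233, minus strand), had 75.4, 78.8 and 77.9 CPM in knockdown libraries, against 45.7, 46.7 and 43.8 CPM in control libraries. The rise of 0.77 (approximate SE 0.0472, adjusted p = 7.4e-14) brought it to 170.4% of the control level, without overlap. AMPD3, the AMP deaminase known from erythrocytes (ENSG00000133805, chromosome 11, 10308313 to 10507579, plus strand), had 9.67, 12.6 and 11.1 CPM in knockdown libraries and 3.62, 4.71 and 3.82 CPM in control libraries, all knockdown values above all controls. Its rise of 1.46 (approximate SE 0.131, adjusted p = 2.2e-10) was the largest of the 44 tested members, at a low level. AMPD2, the more abundant AMP deaminase here, had 59.1, 58.5 and 50.3 CPM in knockdown libraries and 63.8, 59.9 and 61.0 CPM in control libraries (log2 fold change -0.14, adjusted p = 0.0364). That call was lost in 9 of 16 alternatives, with an adjusted p of 0.211 when knockdown replicate 3 was left out. The count is uncertain too, since genes on the opposite strand overlap 10.7% of the exon bases of AMPD2. The call was also lost without control replicate 1 (adjusted p = 0.142) and without control replicate 3 (adjusted p = 0.074). ADK, adenosine kinase, had 95.8 ± 5.45 CPM in knockdown cells and 89.7 ± 2.01 CPM in control cells (adjusted p = 0.0672), and passed without knockdown replicate 2 (adjusted p = 0.0357).

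Nucleoside kinases also divided. UCK2, the main uridine-cytidine kinase of many tumour lines, had 99.3, 104 and 101 CPM in knockdown libraries and 124, 123 and 125 CPM in control libraries (log2 fold change -0.29, approximate SE 0.0372, adjusted p = 1.51e-07). UCK1, its relative, had 34.2, 34.0 and 33.1 CPM in knockdown libraries and 28.1, 29.2 and 31.1 CPM in control libraries, a rise of 0.20 (adjusted p = 0.00601) that did not hold without control replicate 1 (adjusted p = 0.0548). In neither gene did the groups overlap. TK1, the cytosolic thymidine kinase that peaks in S phase (ENSG00000167900, chromosome 17, 78174075 to 78187233, minus strand), had 100.2, 104 and 94.9 CPM in knockdown libraries and 142, 141 and 143 CPM in control libraries. It fell to 70.2% of the control level (log2 fold change -0.51, approximate SE 0.0384, adjusted p = 5.38e-12).

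The other deoxynucleoside kinases are not tied to S phase in the same way. TK2, the mitochondrial thymidine kinase, had 22.6, 22.1 and 19.0 CPM in knockdown libraries and 17.5, 19.7 and 20.4 CPM in control libraries and did not pass (adjusted p = 0.127). It passed without knockdown replicate 3 (adjusted p = 0.0202), and 21.9% of its exon bases are overlapped from the opposite strand. DCK, deoxycytidine kinase, which activates cytarabine and other nucleoside drugs, rose, with 57.4 ± 1.08 CPM in knockdown cells and 43.2 ± 0.894 CPM in control cells (SD, n = 3 each; log2 fold change 0.41, approximate SE 0.0491, adjusted p = 4.64e-08). DGUOK, the mitochondrial deoxyguanosine kinase, fell (30.7 ± 0.938 CPM in knockdown cells, 43.1 ± 1.596 CPM in control cells, log2 fold change -0.49, adjusted p = 2.5e-08).

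All 6 deoxynucleotide synthesis genes fell, against 30.5% of all genes, and in all 6 the knockdown libraries lay below every control library, against 32.5% of all genes; their median log2 fold change was -0.39. DUT, the dUTPase that keeps uracil out of DNA (ENSG00000128951, chromosome 15, 48331011 to 48343373, plus strand), had 88.8, 86.3 and 82.7 CPM in knockdown libraries and 142, 144 and 133 CPM in control libraries. Its fall of 0.70 (approximate SE 0.0410, adjusted p = 2.92e-14) was the largest of the 6. RRM1, the large subunit of ribonucleotide reductase, averaged 158 ± 4.57 CPM in knockdown cells and 221 ± 4.14 CPM in control cells (log2 fold change -0.48, adjusted p = 1.07e-12). RRM2, the small subunit of the S phase enzyme, fell least of the 6, to 256 ± 3.70 CPM in knockdown cells against 298 ± 3.24 CPM in control cells (log2 fold change -0.22, adjusted p = 4.73e-07).

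Thymidylate genes fell by amounts in between. DTYMK, thymidylate kinase, averaged 58.4 ± 1.88 CPM in knockdown cells and 79.3 ± 3.34 CPM in control cells (log2 fold change -0.44, adjusted p = 5.33e-09). TYMS, thymidylate synthase and the target of fluorouracil, averaged 56.1 ± 2.96 CPM in knockdown cells and 70.7 ± 1.57 CPM in control cells (log2 fold change -0.33, adjusted p = 1.1e-06). DCTD, the dCMP deaminase that feeds it, averaged 105 ± 1.65 CPM in knockdown cells and 129.9 ± 1.66 CPM in control cells (log2 fold change -0.31, adjusted p = 3.02e-08). Of 20 S phase genes outside the list, 16 fell and 2 rose, against 30.5% lower and 29.4% higher of all genes. The median of these 20 was -0.48. MCM4 (log2 fold change -0.70), MCM7 (-0.63), MCM2 (-0.59) and PCNA (-0.58) were among those that fell. MCM6 (0.25) and CCNE2 (0.24) rose. The part of a shift in cell cycle phase in the deoxynucleotide result was not tested. Antisense or overlapping genes limit 3 of the 6: ENOSF1 and TYMSOS cover 46.6% of the exon bases of TYMS from the opposite strand, AC023355.1 covers 14.5% of those of DUT, and AC007240.1 overlaps 20.2% of those of RRM2 on the same strand. ENOSF1 itself had a log2 fold change of -0.10 (adjusted p = 0.0199).

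The 130 bases before a RefSeq start are shown for RRM1, RRM2, DTYMK and TK1. These fell together and each hold the CCAAT box within that distance. Where a gene has several starts, the one with the most matches in these 130 bases was chosen. Capitals mark CCAAT or, on the other strand, ATTGG. The windows are chr11:4094555-4094684 on the plus strand, chr2:10122609-10122738 on the plus strand, chr2:241686816-241686945 on the minus strand and chr17:78187053-78187182 on the minus strand, each read along the gene.
RRM1: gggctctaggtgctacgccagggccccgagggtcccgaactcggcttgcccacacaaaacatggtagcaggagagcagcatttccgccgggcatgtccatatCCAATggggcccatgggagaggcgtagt
RRM2: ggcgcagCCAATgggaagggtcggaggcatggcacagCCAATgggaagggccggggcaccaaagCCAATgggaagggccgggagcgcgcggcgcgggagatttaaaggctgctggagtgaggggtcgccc
DTYMK: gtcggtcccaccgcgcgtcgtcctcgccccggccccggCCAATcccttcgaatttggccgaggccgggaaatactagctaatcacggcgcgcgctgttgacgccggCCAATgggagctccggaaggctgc
TK1: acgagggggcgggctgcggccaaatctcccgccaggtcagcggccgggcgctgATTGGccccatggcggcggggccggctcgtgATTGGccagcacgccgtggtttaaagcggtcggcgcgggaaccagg
In these stretches RRM2 holds 3 copies, DTYMK and TK1 hold 2 each and RRM1 holds 1, numbers that depend on the choice of start. Before another start of RRM2 the only match lay 249 to 245 bases away, outside the 130 bases. Among the 6 deoxynucleotide genes, 3 held CCAAT on either strand within 250 bases, and TYMS, DUT and DCTD, which also fell, did not. Over the members with a promoter the share was 15 of 43 (34.9%), against 37.0% of all genes with one. Per window it was 26.7% against 32.0%, so the share in the members was not the higher one. Most of the 15 members with the box fell, against 59.1% of tested members and 30.5% of all tested genes. Of these 15, AMPD3 rose, ADK did not pass and all the others fell. The part of the box in these changes was not tested.

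The E-box CACGTG, the core sequence that MYC binds, was searched in the same windows because MYC itself fell, to 313 ± 6.27 CPM in knockdown cells against 566 ± 7.97 CPM in control cells (log2 fold change -0.86, adjusted p = 1.49e-19). It occurred in 5 of 43 members (11.6%), against 7.73% of all genes with a promoter. Counted per window, of which members have more per gene, the shares were 6.67% of 75 member windows and 6.34% of all windows, so the gap was small. The matches are given with 12 bases on either side, along the gene and with the motif in capitals, at chr4:56435780-56435809, chr2:215312001-215312030, chr16:72008573-72008602, chr1:109619748-109619777 and chr4:70993521-70993550 in the order listed; PPAT is read from the minus strand and the others from the plus strand.
PPAT: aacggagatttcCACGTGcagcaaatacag
ATIC: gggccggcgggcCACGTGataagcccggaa
DHODH: gccgctactgcgCACGTGcacccaaccaga
AMPD2: gtggtggctgccCACGTGgcgcccaggaag
DCK: cgccccggccttCACGTGacctggcgtgcg
The genes with this hexamer did not share a direction: PPAT, DHODH and AMPD2 fell, DCK rose and ATIC did not pass. The PPAT match, at chr4:56435792-56435797, lies just past the PAICS start at chr4:56435752. Only bases before a start were searched, so this match was not counted for PAICS, which also fell. A match of letters does not show that a factor binds.

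Of the mono- and diphosphate kinases 1 of 3 (33.3%) fell, a share near the 30.5% of all genes. NME1, a nucleoside diphosphate kinase, had 50.8, 50.7 and 55.0 CPM in knockdown libraries and 66.4, 64.7 and 67.9 CPM in control libraries, without overlap (log2 fold change -0.35, approximate SE 0.0486, adjusted p = 6.82e-07). NME2, its neighbour and close relative, averaged 4.29 ± 0.243 CPM in knockdown cells and 4.74 ± 0.544 CPM in control cells (adjusted p = 0.419). Both counts are uncertain, because the readthrough gene NME1-NME2 overlaps 18.6% of the exon bases of NME1 and 22.9% of those of NME2. CMPK1, which phosphorylates UMP and CMP, had 260.1 ± 14.1 CPM in knockdown cells and 246 ± 2.79 CPM in control cells and missed the threshold narrowly (adjusted p = 0.0503). It passed in 5 of 16 alternatives, among them that without knockdown replicate 2 (adjusted p = 0.00880).

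Neither of the tested genes of the nucleotidase and phosphorylase step, NT5C2 and UPP1, passed. NT5C2, the cytosolic nucleotidase that inactivates thiopurine drugs, had 69.8 ± 2.68 CPM in knockdown cells and 66.9 ± 1.90 CPM in control cells (adjusted p = 0.267), and CNNM2 overlaps 36.7% of its exon bases from the opposite strand. UPP1, uridine phosphorylase, had 4.23, 4.17 and 4.18 CPM in knockdown libraries and 3.47, 3.53 and 3.20 CPM in control libraries, which did not overlap but did not pass (adjusted p = 0.0967). NT5E, the ecto-nucleotidase CD73 that makes adenosine outside the cell, had 0, 4 and 1 counts in knockdown libraries and 5, 1 and 2 counts in control libraries and was too low to test.

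Pairs of genes at one step were compared within each library, as the log2 ratio of their counts, which does not depend on scaling. The largest shifts in balance were those of AMPD3 over AMPD2 and of IMPDH1 over IMPDH2. The ratio AMPD3/AMPD2 averaged -2.34 ± 0.240 in knockdown libraries and -3.93 ± 0.242 in control libraries (SD, n = 3 each), a difference of 1.597 in log2 ratio. For IMPDH1/IMPDH2 the ratio was 3.04 ± 0.0373 in knockdown libraries and 4.28 ± 0.112 in control libraries, a difference of -1.23. Per kilobase of principal transcript, IMPDH1 made up 82.9, 82.3 and 82.2% of the pair in knockdown libraries and 91.9, 91.0 and 92.2% in control libraries. IMPDH2 is usually the more abundant form in proliferating cells, so its low count here is doubtful; how the reads were counted is not stated, and the shares of this pair carry that doubt.

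The ratio PRPS2/PRPS1 was lower by 0.61 in knockdown libraries, at -0.89 ± 0.0832 against -0.28 ± 0.0158 in control libraries. Per kilobase, PRPS2 made up 30.3 to 32.8% of the pair in knockdown libraries and 41.2 to 41.7% in control libraries. TK2/TK1 differed by 0.65, UCK2/UCK1 by -0.49, RRM2/RRM1 by 0.26 and CTPS2/CTPS1 by 0.22, each without overlap. In ADSS1/ADSS2, with a difference of -0.067, and NME2/NME1, with 0.20, the groups overlapped. For the 7 of 9 pairs without overlap the two-sided exact permutation p was 0.1, the smallest that 3 libraries against 3 can give. It was 0.129 after Benjamini-Hochberg adjustment over the 9 pairs. No pair could therefore pass at 0.05. Lack of overlap was common in the table, at 64.3% of all single genes tested. No such share was computed for ratios of other pairs.

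**Figure D3:**
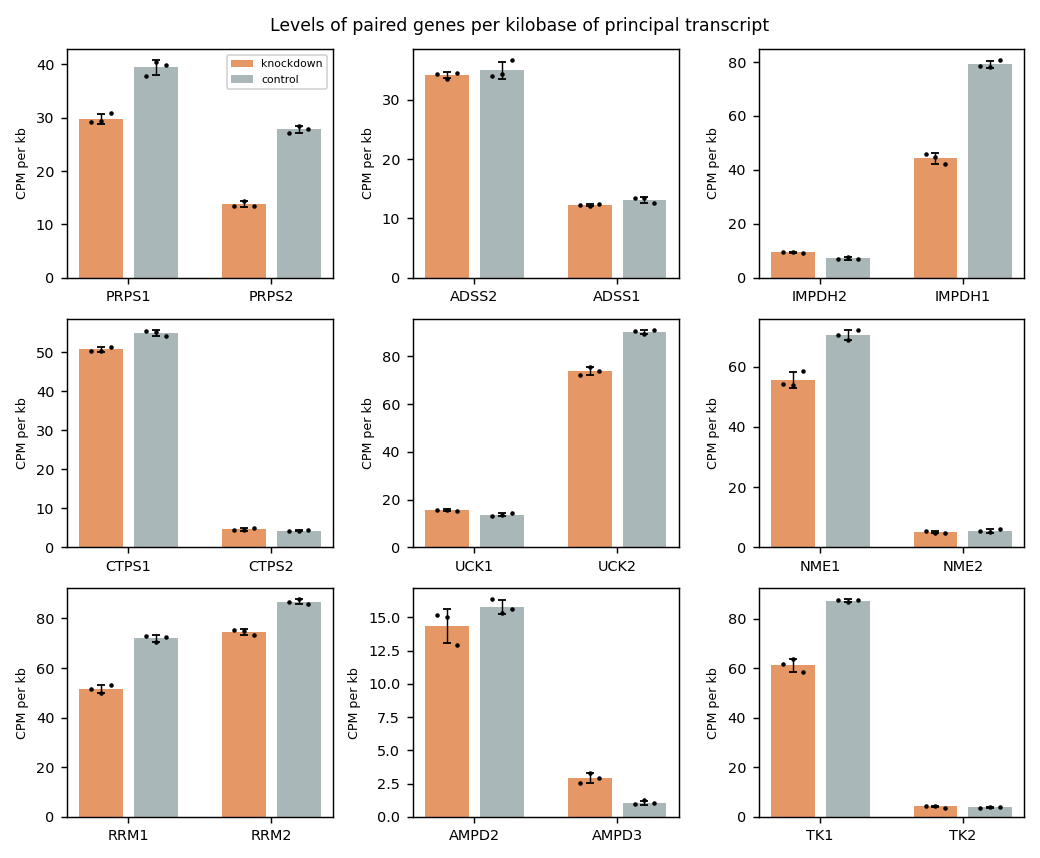
CPM per kilobase of principal transcript for 9 pairs of genes; bars are means, error bars SD and points the 3 libraries of a group, with knockdown left of control for each gene. IMPDH1 stays above IMPDH2, whose low count is doubtful, in every library, although their levels move towards each other, and AMPD3 is higher in each knockdown library than in any control library.

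The classes are set side by side here, against 30.5% of all genes lower and 29.4% higher. The deoxynucleotide genes had 6 of 6 lower (median -0.39), de novo purine synthesis 6 of 11 lower and 1 higher (median -0.15), de novo pyrimidine synthesis 4 of 5 lower and none higher (median -0.12), and salvage 6 of 13 lower and 4 higher (median -0.12). The 11 de novo purine genes summed to 1466, 1452.5 and 1479.7 CPM in knockdown libraries and to 1954, 1975 and 1976 CPM in control libraries, 74.5% of the control sum. The corresponding share was 76.7% for the deoxynucleotide genes, 92.1% for de novo pyrimidine and 90.1% for salvage. These sums are weighted towards abundant genes, the purine sum towards PAICS, and no test was made between classes.

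Other genes of nucleotide metabolism, taken from a list of 56 symbols, went both ways, as all tested genes did: of 43 tested, 18 (41.9%) fell and 15 (34.9%) rose, against 30.5% and 29.4% of all genes, with a median of -0.06. CMPK2, a mitochondrial nucleotide kinase known to be induced by interferon, rose most, to 43.5 ± 3.79 CPM in knockdown cells against 4.48 ± 0.243 CPM in control cells (log2 fold change 3.28, adjusted p = 1.22e-21). LACC1, a purine-metabolising enzyme of macrophages, rose by 1.58, whereas NT5DC2 (-0.90), a nucleotidase-domain protein, and DNPH1 (-0.91), which hydrolyses modified deoxynucleotides, fell. Among genes chosen after their values were seen, SAMHD1, which degrades deoxynucleoside triphosphates, rose by 0.46 and RRM2B, the p53-inducible small subunit of ribonucleotide reductase, by 0.51, while both S phase subunits fell. ADA2, the secreted adenosine deaminase, also chosen after its value was seen, had a log2 fold change of -1.51, opposite to that of ADA.

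Of 6 tested nucleoside and nucleobase transporters, 4 (66.7%) fell and none rose. Over all tested genes 30.5% were lower and 29.4% higher, the background for each count in this paragraph. The smallest adjusted p was that of the equilibrative transporter SLC29A1, which carries cytarabine into cells, at 82.8 ± 3.21 CPM in knockdown cells and 146 ± 2.66 CPM in control cells (log2 fold change -0.82, adjusted p = 2.86e-16). SLC43A3 (-0.48), SLC28A3 (-0.75) and SLC29A4 (-1.77) fell as well. Of 17 tested genes that supply glycine and folate carbon to the purine ring and to thymidylate, 12 (70.6%) fell and 2 (11.8%) rose. Their median was -0.52. PHGDH, which opens serine synthesis, had 23.2 ± 0.833 CPM in knockdown cells and 194 ± 6.36 CPM in control cells (log2 fold change -3.06), and SHMT2, which makes glycine in mitochondria, had 158 ± 3.83 CPM in knockdown cells and 344 ± 2.749 CPM in control cells (-1.13). PSAT1 of serine synthesis (-1.83) and ALDH1L2 of the mitochondrial folate pathway (-2.35) fell too. Of 13 tested regulators 7 (53.8%) fell and 3 (23.1%) rose. MAX, the partner of MYC, had a log2 fold change of -0.99, ATF4 of -0.47 and E2F4 of -0.57. E2F1, an activator of S phase genes, had -0.33.

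**Figure D4:**
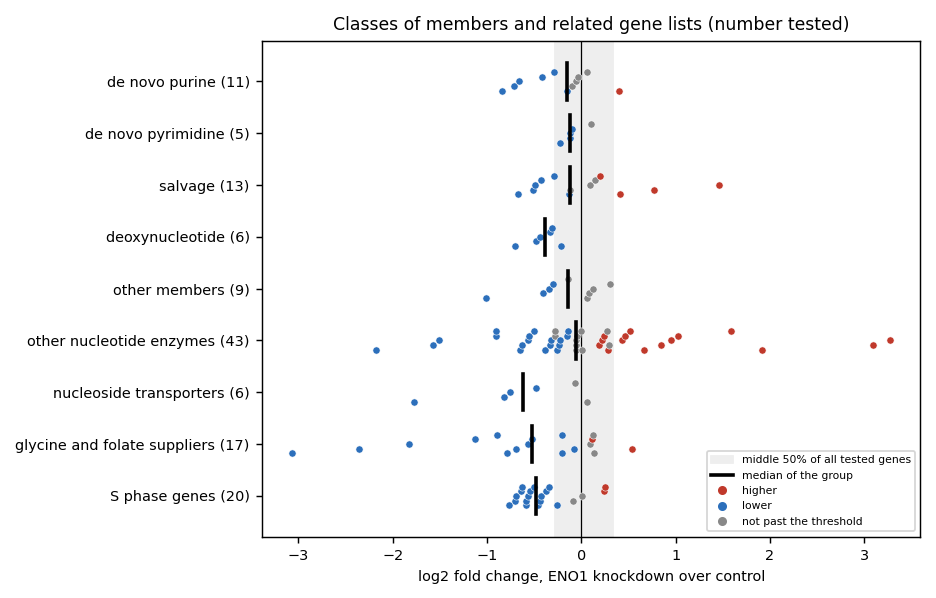
Log2 fold change of each tested gene in the 5 classes of members and in 4 related lists, with the number tested beside each name; black bars are group medians and the grey band spans the middle of all tested genes (-0.28 to 0.33). All deoxynucleotide genes but RRM2 lie below the band, the median of the S phase genes is -0.48, and the salvage genes lie on both sides of 0.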

How the data were processed

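Extraction used Trizol and library preparation a TruSeq kit, per the labels' protocols. HISAT2 2.0.5 and hg38 are named in the submitters' processing notes; no source used here names the read counter, its annotation or its strand setting, so antisense partners cannot be told apart. The authors deposited whole-number read counts per Ensembl gene, not normalized, with 1 column per library. Symbols came from a table of gene names (23211 of 23227 IDs matched), positions, exon overlap and transcript lengths from GENCODE 29 (GRCh38) and promoter sequences from RefSeq (GRCh38.p14).

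Counts were tested in edgeR 4.0.16 (R 4.3.3) with filterByExpr, which kept 14635 genes, TMM factors, a robust quasi-likelihood fit on group alone and Benjamini-Hochberg adjustment over all genes tested; adjusted p-values in the text are from this test, at a threshold of 0.05. CPM use TMM-scaled library sizes. Approximate standard errors are the size of the log2 fold change over the square root of the F statistic. The procedure was tested on simulated data. Libraries of a group differed by more than sampling noise (chi-square per degree of freedom 2.10 to 4.20). Members and lists were chosen with earlier results of these data known. Values in every library are given for members that passed with a log2 fold change of at least 0.5 in size, the member of each step with the smallest adjusted p, and both genes of pairs of opposite sign; from each other list, group values or fold changes are given for up to 4 genes with the smallest adjusted p, and for MYC and E2F1. Ratios of 9 gene pairs were compared by a two-sided exact permutation test. Genes with over 10% of exon bases or of 50-base stretches shared with other genes are called uncertain. Alternatives were RLE, upper-quartile and no scaling, no filter, 5 CPM in 3 libraries, DESeq2 1.42.0, limma-voom (limma 3.58.1), a threshold of 0.01, the replicate number as a block and each library left out.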

Additional observations from a re-analysis of the deposited data

How the results depend on the processing

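Of the 31 members called, 26 kept their call and all 31 their direction under every one of 16 alternatives; UMPS, AMPD2, CAD, CTPS1 and UCK1 lost it under at least 1. Of the 13 tested members without a call, 7 passed under at least 1. The number of members higher, 5 in the main test, was 8 with upper-quartile factors, 10 with plain library totals and 8 with at least 5 CPM in 3 libraries. Over all genes the number higher was 4309 in the main test. It was 4745, 4900 and 3690 in those settings, the last among 10292 genes tested. With plain library totals 1 de novo pyrimidine member was lower. The median was then -0.0931 over members and 0.0576 over all genes. The sign turned for uncalled genes only: ADSS2 had 0.00564 with upper-quartile factors, 0.0204 with plain library totals and 0.00572 with at least 5 CPM in 3 libraries, and ran from -0.0601 to 0.00282 over the fits without 1 library. ADSL ran from -0.00826 to 0.100089 over those fits. APRT ran from -0.164 to -0.0546 over them and had 0.00657 without knockdown replicate 3 and control replicate 2, a setting chosen after seeing the data. In that setting 24 members were lower and 6 higher. The cause of these changes was not tested. Over the 6 fits without 1 library, 24 to 26 members were lower and 5 to 7 higher. The replicate numbers did not pair the libraries: deviations of same-numbered libraries correlated at -0.023 to 0.0092 over 3 pairs, and 1 of 3 knockdown libraries correlated best with its own number. With the replicate block 26 members were lower and 5 higher, of which 25 and 5 were those of the main test, with a median of -0.14. UMPS lost its call with the block and APRT gained one (adjusted p = 0.0789 and 0.0239). The 9 pair ratios moved by less than the SD between libraries in the 9 settings tried for them. By arithmetic, leaving out 1 library or using the replicate number could not have moved a ratio by more than that SD. Those settings therefore say nothing about how stable the ratios are. Depth limits NT5E, at 5 counts or fewer per library.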

Other observations

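Genes that share transcribed bases with members were read beside them. The readthrough gene NME1-NME2 had 11, 28 and 18 counts in knockdown libraries and 70, 41 and 60 counts in control libraries (log2 fold change -1.35, adjusted p = 0.000268). PKIG, a protein kinase A inhibitor gene that touches 1.61% of the exon bases of ADA from the opposite strand, rose by 1.46 on the log2 scale (adjusted p = 6.1e-09), in the same direction as ADA. CNNM2, the antisense neighbour of NT5C2, had a log2 fold change of -0.08 (adjusted p = 0.486).

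Per kilobase of principal transcript, IMPDH2 stood at 9.41 ± 0.281 CPM in knockdown cells and 7.17 ± 0.471 CPM in control cells (SD, n = 3 each), below IMPDH1 at 44.3 ± 2.03 CPM in knockdown cells and 79.1 ± 1.36 CPM in control cells. In control cells IMPDH2 ranked 38 among the 45 members and ADSL ranked 40. Both levels are doubtful, since the read counter and its annotation are not stated. AC137630.3 overlaps 3.35% of the exon bases of IMPDH2 in GENCODE 29, and the annotation the authors counted on may differ.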
